A study of Mus musculus with 4 samples.

Results

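The 60 genes described here encode the secreted and membrane-bound parts of the Wnt signalling pathway and its nuclear end: 18 Wnt ligands, the ligand-processing enzyme Porcn, 15 receptors, 9 secreted inhibitors, 9 genes of the R-spondin module, 4 cytoplasmic components and 4 Tcf/Lef factors. They were chosen by gene symbol and role, with earlier results of these data known. All 60 were found among the 49554 annotated RefSeq genes of chromosomes 1 to 19 and X. DNA methylation of their CpG sites was compared between 60M-GS and 5M-GS, which are mouse germline stem (GS) cells, the cultured form of spermatogonial stem cells, grown for about 60 and about 5 months. Both groups were wild type, came from the testis of Green mice on a DBA/2 background, which carry an EGFP transgene (C57BL/6 Tg14(act-EGFP)OsbY01 mice), and grew in a medium with FGF2, GDNF and 1% fetal bovine serum. Each culture age was represented by 2 replicates, and the deposited table of each age held them pooled. The comparison is therefore between 2 pooled libraries of cultured cells, the spread between replicates is unknown, and a p-value or interval covers counting error only. The series title names activation of a Wnt7b-Jnk pathway with ageing of these stem cells, which is the question the culture ages bear on.

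Wnt proteins are lipid-modified secreted signals that bind Frizzled receptors together with Lrp5 or Lrp6, or with the Ror and Ryk co-receptors. In the canonical branch this stabilises beta-catenin, which joins Tcf/Lef factors on DNA to switch on target genes, while other branches act through the cytoskeleton and Jnk. In the testis, Wnt signals from supporting cells and from germ cells are known to influence the self-renewal of spermatogonial stem cells. Methylation of cytosine in CpG sites is a stable DNA mark, and CpG-dense starts of genes are usually free of it.

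The starts of the genes show the patterns on which the results turn. The 250 bases before the start are printed for 5 of them from the RefSeq promoter table (GRCm38.p6), 5′ to 3′ on the gene's strand, with the CpG sites measured in both libraries in capitals. Wnt1 is shown as a ligand whose start gained methylation, as that of Wnt10a did, Ror2 and Wnt9b because their starts stayed unmethylated while CpG-dense sequence inside the gene gained it, Wnt16 because its 3′ end gained it and its start did not, and Wnt8b because its CpG-poor start was methylated in both libraries. They lie at chr15:98789607-98789856 (plus strand, Wnt1), chr13:53286125-53286374 (minus, Ror2), chr11:103749822-103750071 (minus, Wnt9b), chr6:22287977-22288226 (plus, Wnt16) and chr19:44493222-44493471 (plus, Wnt8b).
Wnt1: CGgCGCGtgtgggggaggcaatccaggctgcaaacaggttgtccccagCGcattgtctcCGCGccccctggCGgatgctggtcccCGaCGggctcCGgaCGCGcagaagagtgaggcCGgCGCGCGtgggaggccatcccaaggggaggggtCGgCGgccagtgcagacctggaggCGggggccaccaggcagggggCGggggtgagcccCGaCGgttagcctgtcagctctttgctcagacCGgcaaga
Ror2: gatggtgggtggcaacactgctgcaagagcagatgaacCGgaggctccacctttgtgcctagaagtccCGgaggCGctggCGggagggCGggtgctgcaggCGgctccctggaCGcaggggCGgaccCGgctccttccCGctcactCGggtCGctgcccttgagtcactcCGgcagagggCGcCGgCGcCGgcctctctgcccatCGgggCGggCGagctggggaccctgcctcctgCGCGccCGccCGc
Wnt9b: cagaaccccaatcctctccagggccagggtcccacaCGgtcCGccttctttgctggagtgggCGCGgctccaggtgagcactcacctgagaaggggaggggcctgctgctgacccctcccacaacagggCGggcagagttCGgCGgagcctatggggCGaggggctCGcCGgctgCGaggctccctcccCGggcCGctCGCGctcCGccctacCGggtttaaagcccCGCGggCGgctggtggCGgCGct
Wnt16: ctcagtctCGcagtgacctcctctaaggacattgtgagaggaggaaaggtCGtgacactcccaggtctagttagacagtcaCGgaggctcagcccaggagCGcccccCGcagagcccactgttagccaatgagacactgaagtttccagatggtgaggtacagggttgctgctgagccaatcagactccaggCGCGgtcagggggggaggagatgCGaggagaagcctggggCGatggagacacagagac
Wnt8b: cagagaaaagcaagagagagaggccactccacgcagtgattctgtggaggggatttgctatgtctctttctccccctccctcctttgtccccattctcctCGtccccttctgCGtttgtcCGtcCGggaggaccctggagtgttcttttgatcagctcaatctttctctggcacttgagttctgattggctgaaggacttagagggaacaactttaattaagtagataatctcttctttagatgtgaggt
In the Wnt1 sequence 22 of the 23 CpGs were more methylated in 60M-GS, and 21.7% of calls were methylated in 60M-GS against 5.61% in 5M-GS. Its median CpG stood at 13.8% in 60M-GS, against 0% in 5M-GS, and the highest reached 72.0% in 60M-GS, against 38.2% in 5M-GS. The 24 CpGs of Ror2 held 0.599% methylated calls in 60M-GS, against 0.230% in 5M-GS, and the 22 CpGs of Wnt9b held 0.621% in 60M-GS, against 0.541% in 5M-GS. No call was methylated on the 9 CpGs of Wnt16 in either library. The Wnt8b sequence has 5 CpGs, of which 4 were measured, and they were 88.8% methylated in 60M-GS, against 86.8% in 5M-GS.

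In total depth the libraries were alike, with 471693518 CpG calls in 60M-GS, against 468121185 in 5M-GS, medians of 22 and 21 calls per CpG, and 17634196 CpGs with at least 5 calls in both. Chromosome 15 was shallower in 60M-GS, with 0.832 times the calls of 5M-GS, beside 0.916 to 1.04 times on the other chromosomes. It carries Wnt1, Wnt10b, Fzd6 and Rspo2 and also Wnt7b, Myc, Prickle1 and Celsr1. The spans of its 4 members stood at 0.842 to 0.868 times, and the part of this depth in their results was not tested. Of all calls, 76.3% were methylated in 60M-GS, against 72.4% in 5M-GS. The cell label was checked on gene starts that are unmethylated in male germ cells. The starts of the germline genes Dazl, Ddx4, Mael, Sycp3 and Tdrd1, apart from 1 further start of Tdrd1, stood at 1.45% to 11.2% in 60M-GS, against 2.24% to 10.3% in 5M-GS. Those of the maternally methylated imprinted genes Kcnq1ot1, Mest, Peg3, Peg10, Plagl1 and Snrpn, apart from 3 further starts of Snrpn, stood at 0.265% to 8.83% in 60M-GS, against 0.892% to 9.55% in 5M-GS. The exceptions were methylated: the third listed start of Tdrd1 at 92.2% in 60M-GS, against 91.5% in 5M-GS, and 3 CpG-poor starts of Snrpn at 55.6% to 72.7% in 60M-GS, against 41.5% to 72.9% in 5M-GS.

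CpG-dense runs, stretches of 200 bp or more with 20 or more CpGs spaced no further than 50 bp apart, were compared in each gene and 5 kb on either side. There were 140 runs in 57 of the 60 genes, and Wnt8a, Dkk1 and Dkk4 had none. Most of this CpG-dense sequence was unmethylated at both culture ages: 118 runs lay below 5% in both libraries. Another 7 runs, in Wnt3, Wnt5b, Wnt7a, Fzd6 and Lrp5, lay between 87.3% and 93.4% in 60M-GS, against between 86.9% and 94.5% in 5M-GS. The remaining 15 runs, set apart by their levels, were all more methylated in 60M-GS. The genome-wide share for runs set apart in this way is not given here. Of the 15 runs, 11 were called higher, and no run was called lower. A call required a Benjamini-Hochberg adjusted p under 0.05 in Fisher's exact test (two-sided) and a difference of at least 20 percentage points. The 11 calls are 7.86% of the runs of these genes, beside 5.13% higher and 0.12% lower among all 23238 runs of the genome. When calls were divided by the number of CpGs, a stricter test in which about the mean depth counts, 7 of the 11 remained called, and those of Fzd7, Wnt6 and Wnt10a and the one at the Wnt1 start did not. With gaps of up to 100 bp allowed, the Fzd5, Fzd7 and Wnt6 runs became parts of longer runs that missed the limit of 20 points.

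**Figure D1:**
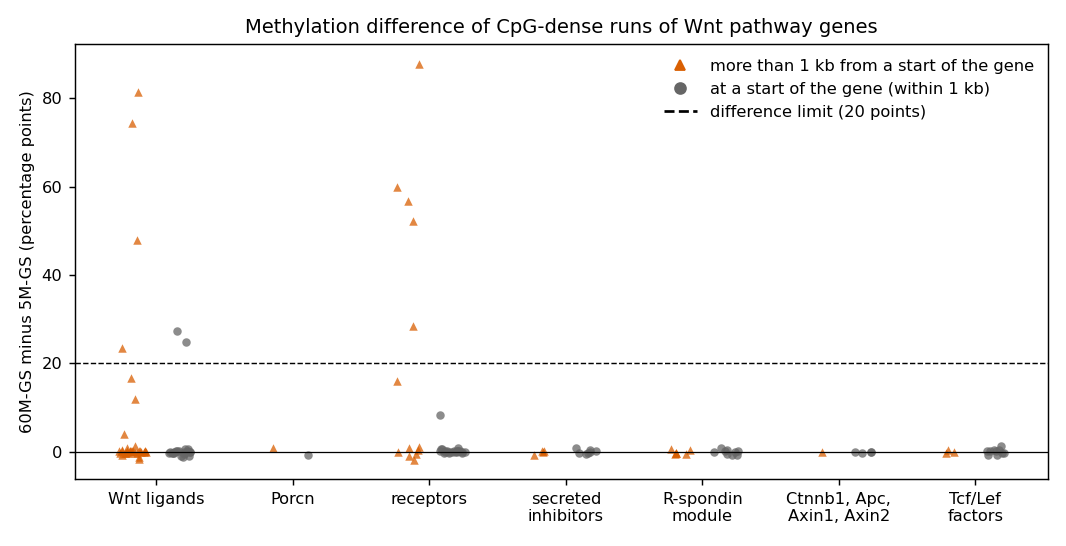
Difference in methylation (60M-GS minus 5M-GS, percentage points, vertical axis) of each of the 140 CpG-dense runs by role of the gene (horizontal axis). Triangles are runs more than 1 kb from a start of the gene, circles are runs at a start, and the dashed line marks the limit of 20 points. Runs past the limit belong to ligands and receptors, and the other classes lie between -0.82 and 1.33 points.

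By role, the calls fell on ligands (6 of 58 runs, in 5 genes) and receptors (5 of 35 runs, in 3 genes). None fell on the 47 runs of the other 27 genes, where differences ran from -0.82 to 1.33 points and no level in either library was above 2.24%. Classes differ in where their runs lie: ligands had 35 and receptors 13 runs off a start of the gene, and the other classes had 16 between them. Of these off-start runs, 4 were called higher in ligands, 5 in receptors and none in the other classes. The part of position in the split by class was not tested. Of the 87 runs near a start of any gene 2 (2.3%) were called higher, beside 0.802% of all such runs (0.0136% lower). Of the 49 runs inside a gene and away from any start 8 (16.3%) were called higher, beside 14.2% genome-wide (0.189% lower). Of 4 runs outside genes 1 was called higher, beside 10.0% genome-wide (0.493% lower). The position of the runs thus went with calls across the genome as it did here, and the share inside genes was near that of all genes, while 2 calls near starts are too few to read.

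Among the ligands, Wnt9b, which acts in kidney and craniofacial development, had the largest difference. A run of 34 CpGs at chr11:103730674-103731159, inside the annotated gene and 18662 bp downstream of its start, was 93.0% methylated in 60M-GS (985 calls), against 11.6% in 5M-GS (1170 calls), a difference of 81.4 points (95% interval 78.7 to 83.6). All 34 of its CpGs passed Fisher's exact test singly in the same direction. They hold the calls that picked the run, so here and below such counts only describe a run and are no further support. Of all single CpGs genome-wide, which were not picked in this way, 2.02% were called higher and 0.215% lower. The window of 1 kb on each side of the Wnt9b start stood at 5.03% in 60M-GS, against 3.74% in 5M-GS. The neighbouring Wnt3, a canonical ligand whose annotation overlaps that of Wnt9b by 1098 bp, had a methylated run at 93.4% in 60M-GS, against 93.2% in 5M-GS and a start at 0.489% in 60M-GS, against 0.894% in 5M-GS.

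Wnt5a, the main ligand of the beta-catenin-independent branch, had a run of 23 CpGs at chr14:28522549-28522857 at 78.4% in 60M-GS (852 calls), against 3.97% in 5M-GS (780 calls). The difference was 74.4 points (71.1 to 77.3), all 23 CpGs were called singly, and the run lies 18006 bp inside the gene. A second run at chr14:28518281-28518573 stood at 16.1% in 60M-GS, against 4.09% in 5M-GS, below the limit of 20 points. The Wnt5a start, inferred from CpG density, was at 2.97% in 60M-GS, against 2.42% in 5M-GS. The called run thus lay in the far portion of the gene, and the start was not called.

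Wnt1, a canonical ligand first known from mouse mammary tumours and midbrain development, was called both at its start and beyond its other end, on the shallower chromosome 15. The run over the start, 56 CpGs at chr15:98789563-98790399, was 35.1% methylated in 60M-GS (1722 calls), against 7.77% in 5M-GS (1905 calls), a difference of 27.3 points (24.7 to 29.9). In 500 bp bins the gain spanned the start, with 23.7% in 60M-GS against 5.23% in 5M-GS just before it and 42.1% in 60M-GS against 9.50% in 5M-GS just after it. The bins centred from 1.25 to 3.25 kb inside the gene held 1.23% to 2.47% in 60M-GS, against 0.647% to 2.08% in 5M-GS. A second run in the flank, 21 CpGs at chr15:98798040-98798353 and 8183 bp from the start, was at 54.0% in 60M-GS (472 calls), against 6.08% in 5M-GS (576 calls), a difference of 47.9 points (42.9 to 52.7). The adjacent 1 kb tile beginning at 98797001 was at 76.9% in 60M-GS, against 13.1% in 5M-GS.

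Wnt10b, a canonical ligand also on chromosome 15 that borders Wnt1 across a gap of 11650 bp, had no run called, and its start stood at 3.60% in 60M-GS, against 2.58% in 5M-GS. A tile inside it, chr15:98774001-98775000, was at 75.1% in 60M-GS, against 10.6% in 5M-GS. Its whole span was at 18.3% in 60M-GS, against 7.62% in 5M-GS.

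Wnt10a and Wnt6, canonical ligands separated by 6696 bp on chromosome 1, each had 1 run called. The Wnt10a run at chr1:74791902-74792377, 35 CpGs over a start placed by CpG density and overlapping Gm32099, was at 29.3% in 60M-GS (682 calls), against 4.37% in 5M-GS (663 calls). The difference was 25.0 points (21.2 to 28.7). The Wnt6 run at chr1:74782750-74783076, 21 CpGs and 10858 bp from the start, was at 36.2% in 60M-GS (470 calls), against 12.6% in 5M-GS (443 calls), a difference of 23.5 points (18.1 to 28.8). Its adjusted p of 1.4e-15 in Fisher's exact test was the largest of the 11 called runs. A tile next to the Wnt10a run, chr1:74793001-74794000, was at 78.9% in 60M-GS, against 26.0% in 5M-GS. Levels such as 36.2% are averages over cells and alleles, and a share of fully methylated molecules cannot be told apart from partial methylation of each.

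Of the remaining ligands, Wnt4, which acts in kidney and ovary development, came nearest to a call with a run at chr4:137296553-137296808 at 52.7% in 60M-GS, against 36.0% in 5M-GS, a difference of 16.8 points (11.1 to 22.3). Wnt7b, named in the series title, is counted here with the other pathway genes and lies on the shallower chromosome 15. A run inside the gene, chr15:85537494-85537855, was at 67.5% in 60M-GS (797 calls), against 6.93% in 5M-GS (822 calls). The difference was 60.6 points (56.7 to 64.1). The other Wnt7b runs differed by -1.05 to -0.02 points and were not called. Nor was the Wnt7b span, at 59.6% in 60M-GS, against 56.4% in 5M-GS. Its 5′ end was at 0.423% in 60M-GS, against 0.339% in 5M-GS. Porcn, the enzyme that attaches the lipid to Wnt proteins, had runs differing by 0.81 and -0.64 points, and its start stood at 11.3% in 60M-GS, against 12.5% in 5M-GS.

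**Figure D2:**
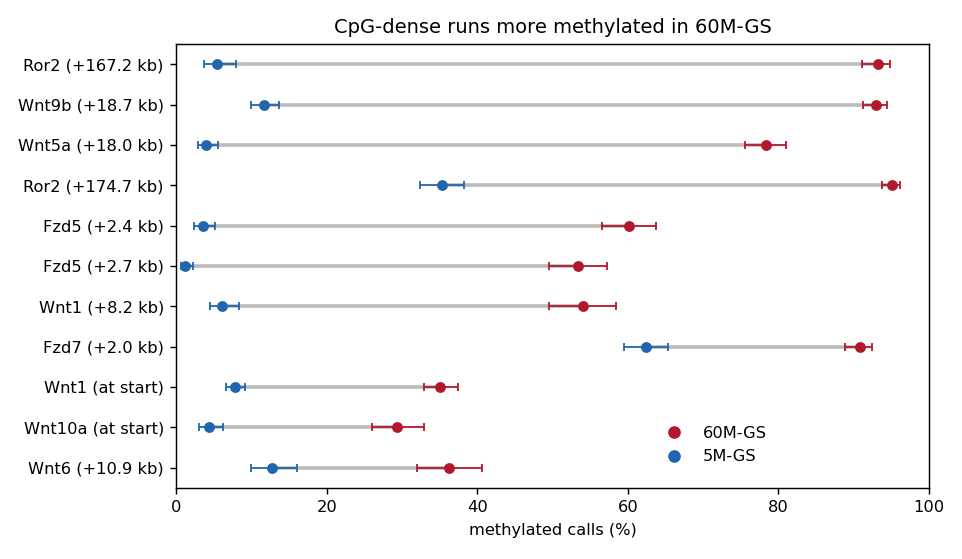
Methylated calls (%, horizontal axis) of the 11 called runs in 60M-GS and 5M-GS, with 95% Wilson intervals that cover counting error only. Runs are ordered by difference, and the distance from the start of the gene is given in kb. The largest difference is 87.9 points in Ror2 and the smallest 23.5 points in Wnt6.

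Among the receptors, Ror2, a receptor tyrosine kinase-like protein that binds Wnt5a, held the largest difference of all 140 runs. Its run of 24 CpGs at chr13:53118693-53118925, 167199 bp from the start, was 93.2% methylated in 60M-GS (694 calls), against 5.37% in 5M-GS (428 calls), a difference of 87.9 points (84.5 to 90.3). All 24 CpGs were called singly. Depth was 1.62 times as high in 60M-GS there, against 0.814 to 1.62 over the 11 called runs, and the part of depth in the result was not tested. A second run at chr13:53110778-53111377 near the far end of the gene stood at 95.1% in 60M-GS (1366 calls), against 35.2% in 5M-GS (1053 calls), a difference of 59.9 points (56.7 to 62.9). At the Ror2 start, 1 kb on each side, levels were 2.54% in 60M-GS, against 3.26% in 5M-GS. The called runs of Wnt5a and Ror2 both lay in the far portion of the gene, as did those of Wnt9b, Wnt6 and Wnt7b. This position was therefore not particular to the ligand and receptor of this pair.

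Fzd5, a Frizzled receptor, had adjacent runs called 2351 and 2697 bp downstream of its start. The run at chr1:64735106-64735399 (20 CpGs) was at 60.2% in 60M-GS (696 calls), against 3.47% in 5M-GS (721 calls), a difference of 56.7 points (52.7 to 60.5). The run at chr1:64734755-64735053 (25 CpGs) was at 53.4% in 60M-GS (633 calls), against 1.16% in 5M-GS (778 calls), a difference of 52.2 points (48.2 to 56.1). The long run nearer the start, chr1:64735653-64736784, stood at 9.42% in 60M-GS, against 1.17% in 5M-GS, and the start itself at 0.517% in 60M-GS, against 0.653% in 5M-GS. In Fzd5 the unmethylated stretch around the start was thus shorter in 60M-GS on its downstream side, while bins from 1.25 kb upstream to 1.25 kb downstream of it lay below 1% in both libraries.

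Fzd7, a Frizzled receptor expressed in stem and progenitor cells, had a run at chr1:59484189-59484683 (31 CpGs) that was already methylated in 5M-GS, at 90.8% in 60M-GS (1020 calls), against 62.4% in 5M-GS (1048 calls). The difference was 28.4 points (24.9 to 31.8), and 7 of its 31 CpGs were called singly. A run closer to the start, at chr1:59483254-59483936, was at 22.8% in 60M-GS, against 6.76% in 5M-GS. The start was at 0.499% in 60M-GS, against 0.266% in 5M-GS. Lrp6, the co-receptor of the canonical branch, differed least among the receptors, with its run at 0.539% in 60M-GS, against 0.498% in 5M-GS.

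**Figure D3:**
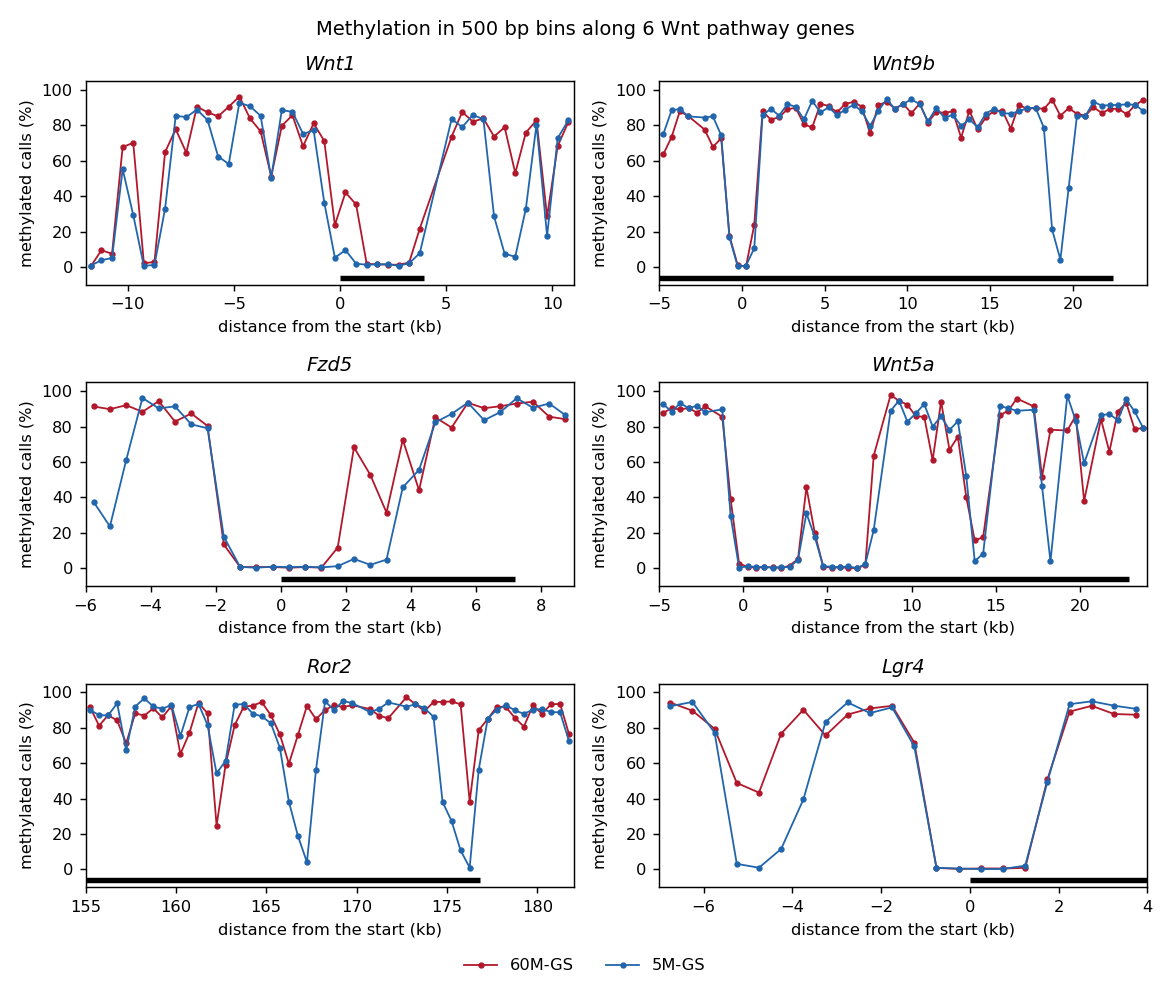
Methylated calls (%, vertical axis) in 500 bp bins against distance from the start (kb, horizontal axis) for Wnt1, Wnt9b, Fzd5, Wnt5a, Ror2 and Lgr4 in 60M-GS and 5M-GS; the black bar is the annotated gene. Bins such as that at 167.25 kb in Ror2 (92.4% in 60M-GS, against 4.0% in 5M-GS) separate the libraries, while bins at the starts of Wnt9b, Fzd5, Wnt5a and Lgr4 lie near 0 in both.

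Secreted inhibitors bind Wnt proteins (the Sfrp proteins and Wif1) or their co-receptors (Dkk1, Dkk2 and Dkk4), and Dkk3 is counted with them by family. None of their 11 runs was called. The largest differences were in Sfrp4, with 2.24% in 60M-GS, against 1.27% in 5M-GS, in Dkk3, with 0.156% in 60M-GS, against 0.799% in 5M-GS, and in Sfrp1, with 1.36% in 60M-GS, against 0.840% in 5M-GS, and the smallest was in Sfrp5, with 0.651% in 60M-GS, against 0.623% in 5M-GS. The adjusted p of these runs in Fisher's exact test was between 0.336 and 1. Promoters of Sfrp and Wif1 genes are known for methylation in tumours. Here the starts of Sfrp1, Sfrp2, Sfrp4, Sfrp5 and Wif1 stood between 0.425% and 5.53% in 60M-GS, against between 0.638% and 5.23% in 5M-GS.

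The R-spondin module strengthens Wnt signalling: R-spondins bind Lgr4, Lgr5 or Lgr6 and thereby hold back Rnf43 and Znrf3, which remove Frizzled receptors from the membrane. None of its 16 runs was called. The largest differences were in Rspo1, with 0.508% in 60M-GS, against 1.33% in 5M-GS, in Lgr6, with 0.994% in 60M-GS, against 0.206% in 5M-GS, and in Lgr5, with 0.366% in 60M-GS, against 1.10% in 5M-GS. Rspo2 differed least, with 0.432% in 60M-GS, against 0.448% in 5M-GS. The cytoplasmic genes Apc, Axin1 and Axin2, parts of the complex that destroys beta-catenin, and Ctnnb1, which encodes beta-catenin, had 5 runs that differed by -0.21 to 0.05 points. Among the Tcf/Lef factors the 13 runs differed by -0.64 to 1.33 points, the largest in Lef1 (1.33% in 60M-GS, against 0% in 5M-GS) and the least in Tcf7l2.

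Gene starts were measured in windows of 1 kb on each side, 50 listed in the RefSeq promoter table for 40 genes and 18 placed by CpG density for 18 more. Of the 68 windows, 49 were below 5% in both libraries. A further 6 were above 60% in both: those of Wnt8b (81.3% in 60M-GS, against 79.96% in 5M-GS), Axin1 and Dkk4, an alternative start each of Wnt5b and Rnf43, and an internal start of Lef1. The start windows of Axin1 and Dkk4 were placed by density and may not be the true starts, since the unmethylated run of Axin1 lies 7157 bp away and both ends of Dkk4 were methylated. The 2 starts called higher were those of Wnt1, at 40.5% in 60M-GS, against 11.7% in 5M-GS, and Wnt10a, at 29.5% in 60M-GS, against 6.71% in 5M-GS. They are 2.94% of the windows, beside 3.41% higher and 0.217% lower among the starts of protein-coding genes, so the share was near the background, and neither was called with divided calls or at a limit of 30 points. No start was called lower, and differences of the others ran from -6.37 points (an alternative Wnt5b start, 1.80% in 60M-GS, against 8.17% in 5M-GS) to 3.37 points (Wnt2, with 5.59% in 60M-GS, against 2.21% in 5M-GS). The 6 genes other than Wnt1 with a run called away from the start had start levels of 0.499% to 5.03% in 60M-GS, against 0.266% to 3.74% in 5M-GS.

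**Figure D4:**
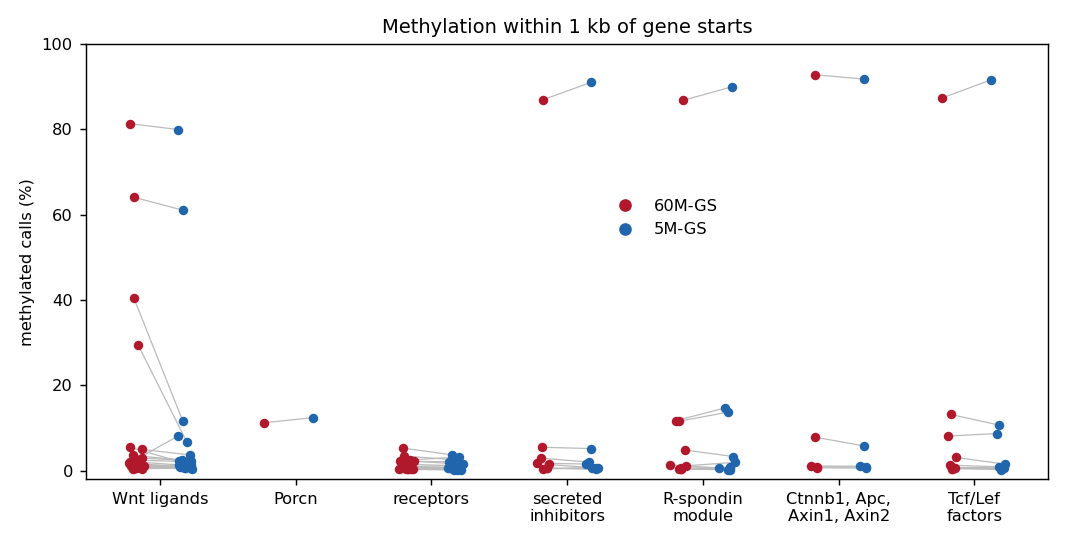
Methylated calls (%, vertical axis) within 1 kb of 68 gene starts by role of the gene, with 60M-GS on the left and 5M-GS on the right of each pair and a line joining the same start. Most starts lie near 0 in both, and Wnt1 (40.5% in 60M-GS, against 11.7% in 5M-GS) and Wnt10a (29.5% in 60M-GS, against 6.71% in 5M-GS) separate.

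At the outermost annotated ends of the genes, 6 of 120 windows of 1 kb on each side were called higher and none lower. This is 5.0%, beside 3.81% higher and 0.219% lower for ends of protein-coding genes and 6.16% and 0.317% for ends of all genes. Apart from the starts of Wnt1 and Wnt10a they were the 3′ ends of Wnt16, Ror2 and Fzd1 and an end of Wnt8a whose orientation was not resolved. The 3′ end of Wnt16, a ligand active in bone, was at 88.8% in 60M-GS (748 calls), against 51.1% in 5M-GS (738 calls), a difference of 37.7 points (33.3 to 41.8). That of Ror2 was at 61.3% in 60M-GS (582 calls), against 25.6% in 5M-GS (750 calls), and that of Fzd1, a Frizzled receptor, at 77.2% in 60M-GS (425 calls), against 46.4% in 5M-GS (405 calls), differences of 35.7 points (30.6 to 40.6) and 30.8 points (24.3 to 36.8). The Wnt8a end was at 61.3% in 60M-GS (1185 calls), against 31.3% in 5M-GS (1024 calls), a difference of 30.02 points (26.0 to 33.9). The 3 of 58 placed 3′ ends are 5.17%, beside 3.54% higher and 0.241% lower for 3′ ends of protein-coding genes. The 2 of 58 placed 5′ ends are 3.45%, beside 3.68% higher and 0.207% lower, so neither share stood far from its background, and none of the 6 ends was called with divided calls. The largest loss at an end, at the 3′ end of Lef1, was at 65.0% in 60M-GS, against 84.2% in 5M-GS and missed the limit.

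Over whole gene spans no member was called in either direction, beside 2.94% higher and 0.0194% lower for protein-coding genes and 5.57% and 0.113% for all genes. Differences ran from -2.85 points in Wnt4 to 17.9 points in Fzd5, which stood at 37.9% in 60M-GS, against 20.01% in 5M-GS. Of the 60 spans 37 were higher and 23 lower in 60M-GS, with a median of 0.415 points beside 0.274 points over protein-coding genes. A difference of 5 points or more was found upwards in 13 genes, among them Dkk1 (35.9% in 60M-GS, against 21.8% in 5M-GS) and Fzd7 (31.6% in 60M-GS, against 21.3% in 5M-GS), and downwards in none. The upward share is 21.7% of the genes, beside 13.7% of protein-coding spans upwards and 2.53% downwards.

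Tiles of 1 kb over each gene and its flanks show changes outside CpG-dense runs. Of 3624 tiles, 86 (2.37%) were called higher and 28 (0.773%) lower, beside 3.48% and 0.475% of all tiles, and 71 of the 86 held no run. Lgr4, an R-spondin receptor, had no run called but held a tile near its far end, chr2:110012001-110013000, at 92.8% in 60M-GS, against 7.12% in 5M-GS. Another tile in its upstream flank, chr2:109913001-109914000, was at 77.4% in 60M-GS, against 10.7% in 5M-GS, while the Lgr4 start stood at 0.534% in 60M-GS, against 0.320% in 5M-GS. Lgr5, an R-spondin receptor used as a marker of intestinal stem cells, held 10 of 130 tiles (7.69%) called higher and 2 (1.54%) lower, with the largest gain at chr10:115505001-115506000 (89.1% in 60M-GS, against 21.1% in 5M-GS). No run of Lgr4 or Lgr5 was called, so these gains lay outside called runs.

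Of 185 tiles of Ror2, 12 (6.49%) were called higher and 2 (1.08%) lower. Wif1, an inhibitor that binds Wnt proteins, had 8 of 74 (10.8%) higher and 1 (1.35%) lower. These genes were picked for their counts, so their shares are not set against the 3.48% of all tiles. In Rnf43 the tile chr11:87731001-87732000 was at 72.5% in 60M-GS, against 21.1% in 5M-GS. The upstream flank of Fzd10, a Frizzled receptor, had a tile at 75.9% in 60M-GS, against 12.2% in 5M-GS. Axin2, a feedback inhibitor and target of canonical signalling, had 1 tile at 26.6% in 60M-GS, against 3.28% in 5M-GS, the only call among the 4 cytoplasmic genes.

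Losses were fewer than gains, and the largest spanned 42.2 points where the largest gain, in Lgr4, spanned 85.6. The Tcf/Lef factors had 4 tiles called higher (0.733%) and 9 lower (1.65%) of 546. The largest loss was in Lef1 at chr3:131190001-131191000, at 17.9% in 60M-GS, against 60.2% in 5M-GS, a difference of -42.2 points (-47.5 to -36.6). Upstream of Tcf7 a tile was at 32.8% in 60M-GS, against 72.6% in 5M-GS. Other losses over 30 points were found in Ror2 (25.1% in 60M-GS, against 63.1% in 5M-GS), Lgr5 (28.6% in 60M-GS, against 64.6% in 5M-GS) and Wnt5b, where a tile next to an alternative start was at 1.41% in 60M-GS, against 36.0% in 5M-GS. None of the 28 losses passed Fisher's exact test when calls were divided by the number of CpGs, against 22 of the 86 gains, in 12 genes. Every gain that passed was of 43.1 points or more, above the largest loss. No gain as small as the losses passed either, so at like size the divided test did not tell gains from losses.

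**Figure D5:**
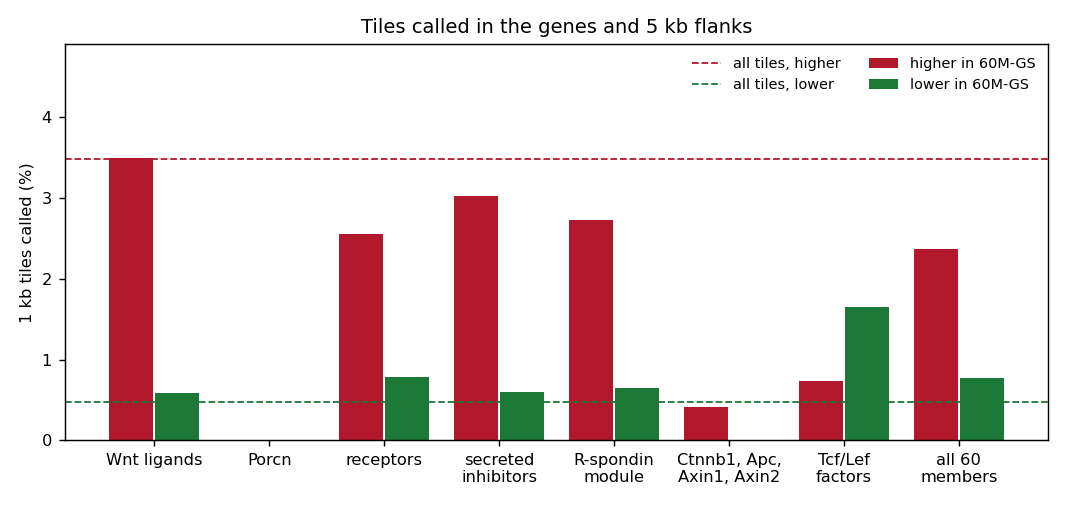
Share of 1 kb tiles (%, vertical axis) called higher or lower in 60M-GS by role of the gene, with the shares of all tiles (3.48% higher and 0.475% lower) as dashed lines. Ligands stand at 3.49% higher and 0.582% lower, and receptors at 2.55% higher and 0.784% lower. Secreted inhibitors stand at 3.02% higher and 0.604% lower, and the R-spondin module at 2.72% higher and 0.648% lower. The cytoplasmic genes stand at 0.408% higher with none lower, Porcn has none, and Tcf/Lef factors stand at 0.733% higher and 1.65% lower.

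In all, 41 of the 60 genes held a run, end, start or tile that was called, and 19 held none. Most of this count came from tiles, where members were close to other pathway genes. A tile was called higher in 34 members and lower in 16, beside 35 and 14 of 60 other pathway genes. Both lists were chosen with earlier results of these data known. No share of all genes with any call is given here, so these counts are not read as results about the genes. The 19 comprise Wnt2b, Wnt3a and Wnt9a among the ligands, Porcn, the receptors Fzd2, Fzd3, Fzd4, Fzd8 and Fzd9, the inhibitors Dkk2, Dkk3, Dkk4, Sfrp1 and Sfrp5, Rspo2 and Rspo4, and the cytoplasmic genes Apc, Axin1 and Ctnnb1. A gene with more tiles had more occasions for a call. Among 60 other pathway genes, 10 of 138 runs were called higher and none lower, close in number to the 11 of 140 here. They included Prickle1, a planar cell polarity gene, at 93.3% in 60M-GS, against 2.46% in 5M-GS. Another was Myc, a target of canonical signalling, at 80.9% in 60M-GS, against 1.55% in 5M-GS. Both lie on the shallower chromosome 15, as do the called runs of Wnt7b and Celsr1. The part of depth in these calls was not tested.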

How the data were processed

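Per the labels' protocols, genomic DNA was sequenced after post-bisulfite adaptor tagging (PBAT). Per the submitters' processing notes, the tool was Bismark 0.10.0 and the build mm10. For every CpG the authors deposited a methylated count, an unmethylated count and a percent methylated, in 1 table per culture age with its 2 replicates pooled. How reads were filtered, deduplicated and merged over strands was not given in the sources used here. Levels were recomputed from the deposited counts, as methylated calls over all calls on CpGs called at least 5 times in each table. The percent column served as a check.

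Every region holding 4 or more such CpGs was tested with a two-sided Fisher's exact test, and p-values were adjusted by Benjamini-Hochberg over all regions of that kind on chromosomes 1 to 19 and X. A call needed an adjusted p under 0.05 and a difference of at least 20 points. CpGs were tested singly where each table had 10 calls or more. Intervals are 95% Wilson intervals, or Newcombe intervals for differences. They cover counting error only, calls on 1 read are not independent, and the tests compare 2 pooled libraries rather than culture ages.

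Gene positions came from RefSeq annotation of the same build, and exons, introns and UTRs were not used here. Starts came from the RefSeq promoter table for 40 genes. For 18 others the start was whichever end held 2 or more times as many CpGs as the other within 300 bp, a rule that was right for 11080 of 12171 protein-coding genes (91.0%) that the table holds. Dkk3 and Wnt8a were not placed. A run counted as near a start within 1 kb of it.

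Members, lists and classes were chosen with earlier results of these data known, and the starts and tiles were added after the runs had been seen. Genes were to be named where a run, end or span was called, or where a run stood between 20% and 80%. The 3 largest run differences of a class and the least were to be named too. Called runs are given with coordinates, levels, calls, differences and intervals. Other runs are mostly given by levels, and those of the cytoplasmic genes and most Tcf/Lef factors by range only. Tile examples were chosen after their values were seen. Alternatives changed the coverage minimum, the difference limit, the definition of runs, ends and spans, the weighting of CpGs and the use of the deepest CpGs. The call rule was tested on simulated runs with independent calls. That simulation held neither dependence of calls on 1 read nor spread between cultures. Python 3.11.15, numpy 2.4.6, pandas 2.3.3, numba 0.67.0, scipy 1.17.1 and matplotlib 3.10.9 were used.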

Additional observations from a re-analysis of the deposited data

How the results depend on the processing

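No paired analysis was possible because replicates were pooled in the deposited tables, so none could be left out or used as a block. No result reversed under any alternative tried. For the 17 called runs and ends, 150 of 173 comparisons with an alternative kept the call and 23 lost it. For 7 uncalled ones near the limit, 61 of 69 stayed uncalled and 8 gained a call. Dividing calls by the number of CpGs, a stricter test that counts each region once at its mean depth, left 7 of the 11 runs higher (lost were Fzd7, Wnt6, Wnt10a and the Wnt1 start), 0 of 6 ends, 0 of 2 starts, 22 of 86 tiles higher, 0 of 28 tiles lower and 1 of 3 ends of the other pathway genes. A limit of 30 points left 7 runs, 0 starts, 46 tiles higher and 5 lower. A limit of 10 points gave 2 ends lower, 5 spans higher, 150 tiles higher and 97 lower, and in the other pathway genes 5 ends higher, 1 end lower and 1 run lower. Gaps of up to 100 bp gave 21 runs higher and 3 lower, against 19 higher in the other pathway genes. There the Fzd5, Fzd7 and Wnt6 runs merged into longer ones and fell below the limit. Runs of at least 10 CpGs gave 26 higher and 1 lower, against 21 higher and 1 lower. Leaving out 1 kb at each end gave 2 spans higher, and windows of 2 kb on each side gave 5 ends higher in the other pathway genes. With such windows the Fzd1 and Wnt1 ends were no longer called, and with 500 bp the Ror2 end was not. These settings change the regions tested or the limit itself, and beyond that the cause was not tested. Genome-wide shares at these settings are not given here, so the counts show only how calls depend on the setting. Depth allowed at least 428 calls in each called run, and without replicates the spread between cultures of 1 age remains unknown.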
